A study of Mus musculus with 4 samples.

Results

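Accessible chromatin in mouse natural killer (NK) cells was examined at 8 lymphocyte trafficking genes: Ccr7, S1pr1, S1pr5, S1pr4, Klf2, Cd69, Cd44 and Selplg. Regions were assigned to the genes by position alone, but the genes were chosen with earlier results of these data known, so the shares below describe them and are not independent support. A region belonged to one of these genes when that gene was the nearest protein-coding gene of assembly GRCm38, measured to the gene's annotated span. This gave 118 of the 91266 accessible regions of the series, between 2 and 31 for each of the 8 genes. The regions came from ATAC-seq, in which a transposase cuts open chromatin and leaves sequencing adapters there. The 4 samples were cultured splenic NK cells from wild-type C57BL/6 mice, 2 kept in high-dose (HD) and 2 in low-dose (LD) interleukin-15 (IL-15), all for 72 hours, with about 75000 cells per replicate. The age of the mice, the concentrations and whether animals were pooled are not given in the sources used here. The cells had been cultured in both groups, so there was no uncultured reference.

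Lymphocytes enter lymph nodes along chemokine and selectin signals and leave tissues along a gradient of sphingosine 1-phosphate (S1P), which is high in blood and lymph and low inside tissue. CCR7 is the chemokine receptor that brings cells into lymph nodes, and the S1P receptors draw them out again. KLF2 is a transcription factor that drives S1pr1 and other trafficking genes, whereas CD69 binds the S1PR1 protein and removes it from the cell surface, which holds the cell in the tissue. In NK cells, S1PR5 is the receptor best known for exit from bone marrow and lymph nodes. CD44 binds hyaluronan in the tissue matrix, and PSGL-1, the product of Selplg, binds selectins on vessel walls. IL-15 keeps NK cells alive and can activate them.

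The measurements consisted of region positions and widths for the whole series, and 2 lists in which the authors deposited the regions that differed by dose, one called up and the other down. Which dose was the reference for those names is not given in the sources used here, so neither list is assigned to a dose. Sequencing depth is unknown, there were no values per sample, and the spread between replicates could not be measured. Every statement on up or down below is therefore the authors' own call, and no test was made. As a check on the label, all 6 NK marker genes examined (Ncr1, Klrb1c, Klrk1, Eomes, Tbx21 and Il2rb) had an accessible region across an end of the gene. The same held for 3 of 5 T cell markers (Cd3e, Cd5 and Cd6), 1 of 5 B cell markers, 2 of 5 myeloid markers and 0 of 3 erythroid markers. No region was assigned to Cd4, Cd8a, Ms4a1, Cd79a, Lyz2 or Hba-a1. An open position is not an expression level, and the part of other cells in the results below was not tested.

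Of the 118 regions, 8 were in the authors' down list, 2 in their up list and 108 in neither. The down share was 6.78% (95% Wilson interval 3.48 to 12.8%), against a background of 1.40% of all regions. The up share was 1.69% (0.466 to 5.97%), against 4.21% of all regions. Down regions thus made up 80.0% of the listed regions of these genes and 24.9% of the listed regions of the whole series. The intervals cover counting error only, and neighbouring regions of 1 gene are not independent of each other.

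**Figure D1:**
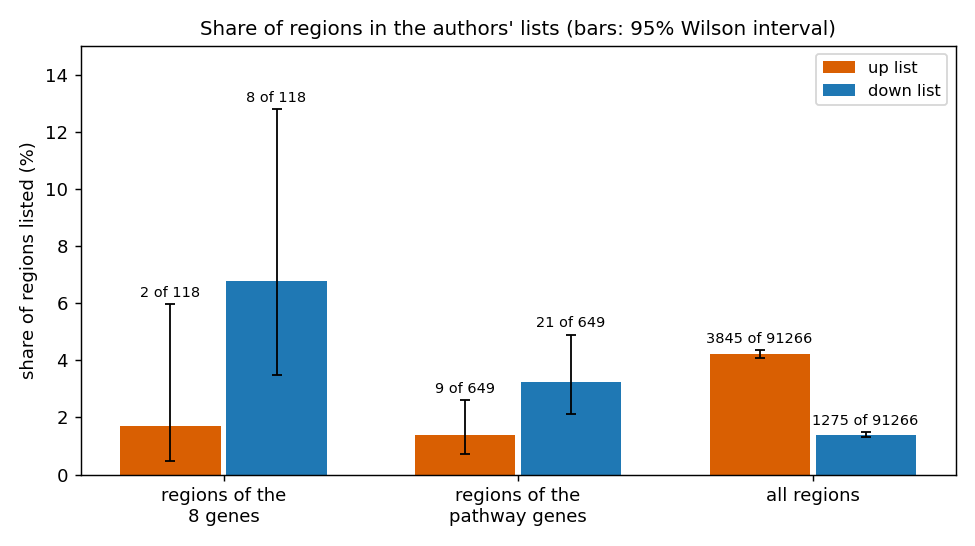
Share of accessible regions (vertical axis, %) in the authors' up list (orange) and down list (blue), for the regions of the 8 genes, of the 64 pathway genes and of the whole series. Bars carry 95% Wilson intervals, and the numbers above them are listed regions of all regions. The down share exceeds the up share in both gene sets (6.78 against 1.69% and 3.24 against 1.39%), and the reverse holds over all regions (1.40 against 4.21%). Without Klf3, Klf6 and Klf13 the pathway shares are 1.63 and 1.45%.

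Counted by gene, 5 of the 8 had at least 1 down region (S1pr1, Klf2, Ccr7, S1pr5 and Cd44), and only Cd44 had an up region. Cd69, Selplg and S1pr4 had neither. Over the 16387 genes with any region, 5.39% had a down region and 16.1% an up region. The 8 genes had more regions than most, with a median of 15.5 against 3 over all genes with a region, and a gene with more regions has more chances of a listed one. A group of 6 (all but S1pr5 and S1pr4) had from 9 to 31 regions. Among the 2651 genes in that range, 17.4% had a down region and 42.3% an up region. Of these 6 members, 4 had a down region and 1 had an up region. The 2651 genes had a median of 13 regions, below the 31, 21, 20 and 19 of S1pr1, Cd44, Cd69 and Ccr7. The range is thus only a partial match for region number.

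**Figure D2:**
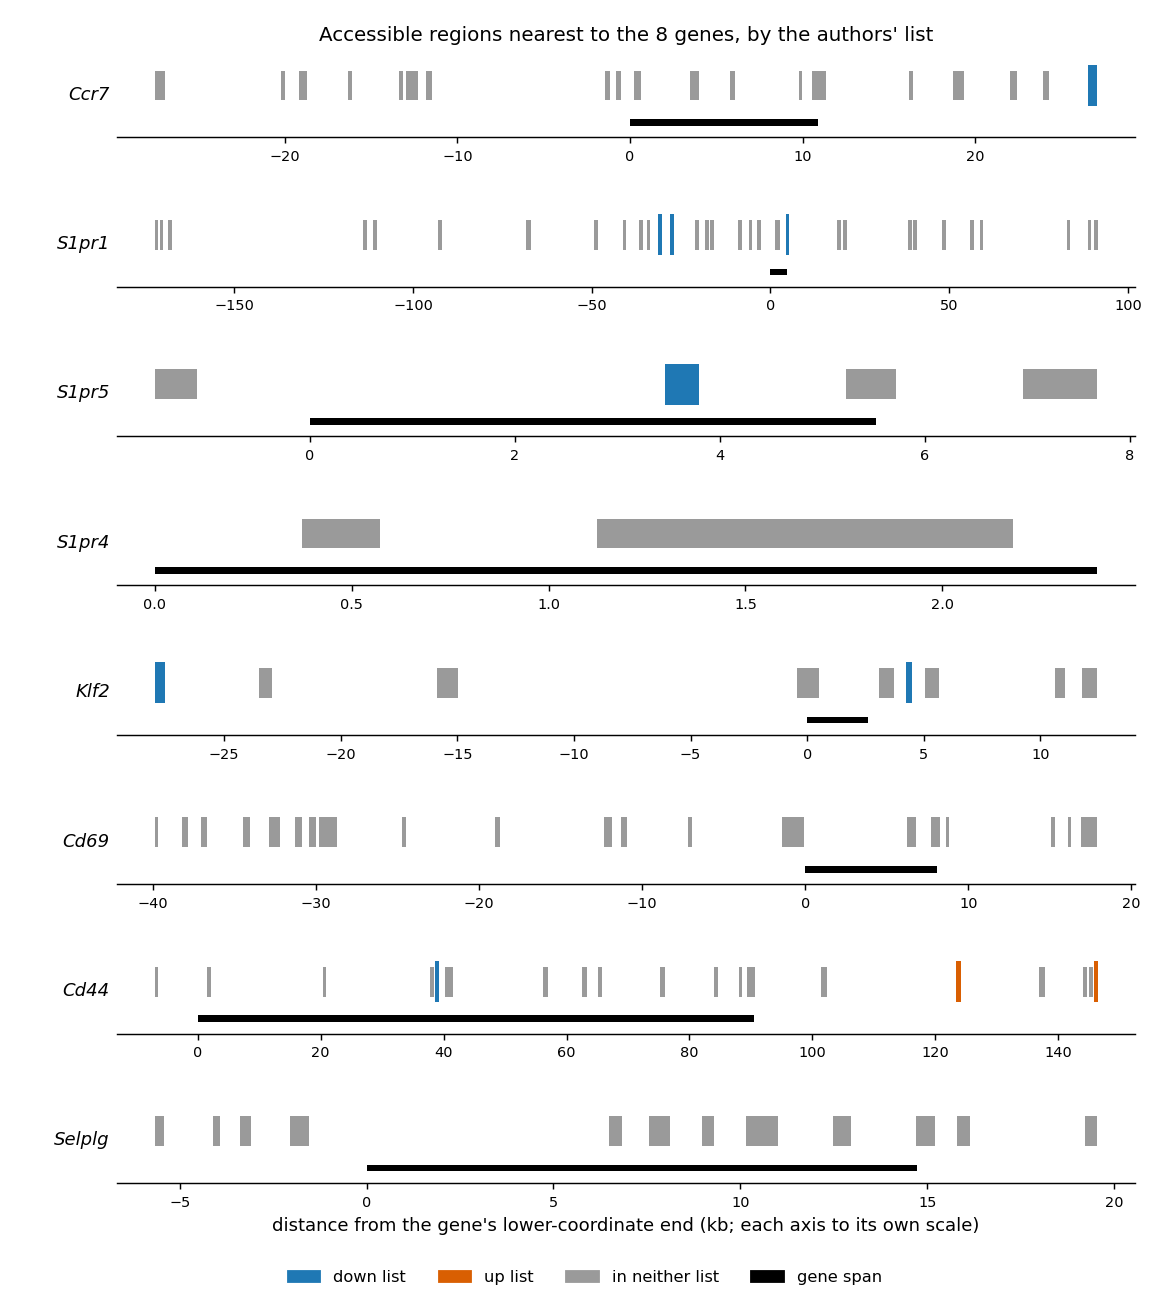
Position of each accessible region relative to the lower-coordinate end of its gene (horizontal axis, kb, on a separate scale for each gene). Black bars are gene spans, and blue, orange and grey marks are regions in the down list, the up list and neither. Down regions lie at 5 genes, and 3 of the 8 down regions touch the gene itself.

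The exit receptors were considered first. S1pr1 (NCBI gene ID 13609, chr3:115710433-115715055) had 31 regions, and 98.5% of all genes with a region had fewer. By the nearest gene of any biotype it had 19, which include its 3 down regions. It is a short gene of 4.62 kb in a stretch of 762 kb free of other protein-coding genes, from Olfm3 to Dph5. Its regions reached 172 kb from the gene, and 29 of the 31 lay outside it. Of the 31, 3 were in the down list and 0 in the up list, and 89 genes of the series had 3 or more down regions.

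One down region of S1pr1, 1027 bp at chr3:115714634-115715660, lay across the higher-coordinate end of the gene. Listing was rare at such positions, since 0.336% of all 9833 regions that crossed an end of their gene were in the down list. Of the 7 regions of the 8 genes that crossed a gene end, this was the only listed one. The other 2 down regions of S1pr1 lay together on the opposite side of the gene. They measured 360 bp at chr3:115679076-115679435, 31.0 kb away, and 863 bp at chr3:115682356-115683218, 27.2 kb away, with a gap of 2920 bp and no region between them. Between that pair and the region at the gene end lay 7 regions in neither list. The widest regions of S1pr1 were a pair of 1301 bp each, at chr3:115711817-115713117 inside the gene and at chr3:115642001-115643301, 67.1 kb away, and both were unlisted. Within 50 kb of S1pr1, each of the 19 regions was assigned to S1pr1, so its 3 down regions did not depend on a neighbouring gene.

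S1pr5 (ID 94226, chr9:21242917-21248443) lies in a crowded stretch of 25.9 kb between Keap1 and Atg4d and had only 4 regions. 1 of them, 333 bp at chr9:21246381-21246713, was in the down list. It lay inside the gene, 1730 bp downstream of the transcription start. The region of 492 bp across the start itself (chr9:21248147-21248638) was in neither list. The widest, of 728 bp at chr9:21249870-21250597, lay 1427 bp upstream of the start and was also unlisted. The listed region at S1pr5 was therefore separate from the open start, whereas at S1pr1 a listed region crossed a gene end. An up region assigned to Keap1 lay 17.4 kb from S1pr5.

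S1pr4, the S1P receptor of lymphoid and other blood cells (ID 13611, chr10:81497745-81500137), had 2 regions, both inside the gene and both unlisted. They measured 196 bp (chr10:81498120-81498315) and 1055 bp (chr10:81498869-81499923). Neither reached the transcription start: the wider one ended 214 bp short of it. With 2 regions, a listed share could not be judged. The nearest listed region was an up region assigned to Celf5, 32.8 kb away.

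Upstream sequence was taken from the RefSeq promoter table (build GRCm38.p6), in which 4 of the 8 genes matched (S1pr5, S1pr4, Klf2 and Cd44), while Ccr7, S1pr1, Cd69 and Selplg did not. The 250 bases before the start are shown for 3 of them because they differ in openness: the accessible region covered 100% of the Klf2 window, 78% of the S1pr5 window and none of the S1pr4 window. The Cd44 window was covered to 65.2%. All regions covering these windows were unlisted. Of the 21263 such windows of protein-coding genes, 53.7% met an accessible region, 0.334% met an up region and 0.113% a down region. Capitals mark matches to CACCC, the core bound by KLF factors, to the GC box GGGCGG and to the MEF2 motif (CTA, any 4 bases, TAG), on either strand. The windows are chr9:21248444-21248693 on the minus strand for S1pr5, chr8:72318812-72319061 on the plus strand for Klf2 and chr10:81500138-81500387 on the minus strand for S1pr4, each written 5′ to 3′ along its gene.
S1pr5: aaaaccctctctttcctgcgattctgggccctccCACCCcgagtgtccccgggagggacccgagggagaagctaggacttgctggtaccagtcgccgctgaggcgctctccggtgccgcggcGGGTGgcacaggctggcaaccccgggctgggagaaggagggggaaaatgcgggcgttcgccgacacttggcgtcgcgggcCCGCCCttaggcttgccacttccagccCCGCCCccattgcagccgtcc
Klf2: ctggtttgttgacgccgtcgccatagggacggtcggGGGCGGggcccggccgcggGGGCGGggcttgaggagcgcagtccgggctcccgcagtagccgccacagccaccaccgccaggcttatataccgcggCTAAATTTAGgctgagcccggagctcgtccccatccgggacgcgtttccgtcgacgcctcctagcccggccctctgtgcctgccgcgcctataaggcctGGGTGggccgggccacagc
S1pr4: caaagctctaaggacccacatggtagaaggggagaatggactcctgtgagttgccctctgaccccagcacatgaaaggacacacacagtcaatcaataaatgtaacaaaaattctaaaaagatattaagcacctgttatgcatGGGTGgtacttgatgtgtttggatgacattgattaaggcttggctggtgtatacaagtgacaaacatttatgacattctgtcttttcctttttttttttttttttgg

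The Klf2 and S1pr5 windows were rich in G and C (71.2 and 69.2%, against a median of 55.6% over all windows), and the S1pr4 window was poor in them (38.8%). The Cd44 window, with 56.4%, was near that median. Klf2 held 2 GC boxes and S1pr5 held 2, and S1pr4 and Cd44 had none; 42.6% of all windows have at least 1. The CACCC core occurred in the windows of S1pr5 (2 matches), Klf2 (1) and S1pr4 (1), and in 54.2% of all windows. Klf2 alone of the 4 had a MEF2 match, between 118 and 109 bases before the start, a motif found in 3.06% of all windows. MEF2 factors are known activators of Klf2. These 3 motifs were chosen after the sequences had been seen. A further 7 motifs, namely CCNCACCC (KLF), GTAAACA (FOXO), GGTGTGA (T-box), TGTGGT (RUNX), CCGGAAG (ETS), TGANTCA (AP-1) and TTCNNNGAA (STAT), sought on both strands, had 0 matches in the 4 windows. They occur in 16.3, 2.62, 3.08, 12.4, 8.98, 6.13 and 6.58% of all windows, in that order. A match is a description of letters and not a bound site.

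Klf2 (ID 16598, chr8:72319062-72321654), the transcription factor upstream of S1pr1, had 9 regions, of which 2 were down and 0 up. The widest, of 976 bp at chr8:72318607-72319582, crossed its start and was unlisted, as described above. One down region, 244 bp at chr8:72323319-72323562, lay 1665 bp beyond the end of the gene and 4257 bp downstream of the start. It sat between unlisted regions of 640 and 602 bp, with gaps of 552 and 564 bp to them, and was the narrowest region of Klf2. The other, 435 bp at chr8:72291078-72291512, lay 27.6 kb upstream of the start and was the farthest region assigned to the gene. A pseudogene, Gm39197, lies nearer to it, at 6057 bp. Of all genes, 217 had 2 or more down regions. Neighbouring genes on both sides of Klf2 also had a down region: one of 297 bp, assigned to Ap1m1, lay 39.6 kb away and one of 821 bp inside Eps15l1 lay 38.2 kb away. Within 50 kb of Klf2, 4 of 23 regions were down and 0 were up, and this includes both of those.

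Ccr7 (ID 12775, chr11:99144199-99155077), the lymph node entry receptor, had 19 regions spread over both sides of the gene, up to 26.9 kb from it. One was down, 549 bp at chr11:99170710-99171258, which lay 15.6 kb beyond the higher-coordinate end of the gene. This region lies inside the non-coding RNA gene Gm32249, so its assignment to Ccr7 holds only among protein-coding genes. The widest region of Ccr7, 832 bp at chr11:99154718-99155549, crossed the higher-coordinate end and was unlisted. The 4 regions inside the gene, from 173 to 519 bp wide, were unlisted too. The next listed region on the other side was an up region assigned to Tns4, 44.9 kb from Ccr7.

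Cd69 (ID 12515, chr6:129267324-129275375), the antagonist of S1PR1, had 20 regions (95.4% of genes had fewer), and none was in either list. Its regions formed a dense group between 28.7 and 39.7 kb on the lower-coordinate side, where 8 of them lay, with widths from 206 to 1118 bp. Of these 8, 5 overlapped the non-coding RNA gene 2310001H17Rik and 1 overlapped Gm38906, and by the nearest gene of any biotype Cd69 kept 10 of its 20 regions. The widest region, 1319 bp at chr6:129265921-129267239, lay 85 bp from the lower-coordinate end. A region of 589 bp (chr6:129275028-129275616) crossed the other end. The nearest listed region was a down region of 180 bp inside Clec2d, 84.5 kb away. Among genes with 9 to 31 regions, 1210 of 2651 had no listed region, so the absence at Cd69 was shared with many genes. Those genes had a median of 13 regions, against 20 at Cd69.

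Of the adhesion genes, Cd44 (ID 12505, chr2:102811141-102901669) is a long gene of 90.5 kb with 21 regions, and was the only one of the 8 with regions in both lists. Its down region, 573 bp at chr2:102849733-102850305, lay inside the gene, 51.4 kb downstream of the start and among unlisted regions 450 and 1052 bp away. Both up regions lay outside the gene on the upstream side. One measured 747 bp at chr2:102934547-102935293, 32.9 kb upstream of the start, and the other 506 bp at chr2:102956955-102957460, 55.3 kb upstream and inside the non-coding RNA gene Gm34483. The first is also nearer to Gm34483, at 5769 bp, so that by the nearest gene of any biotype Cd44 had 0 up regions. There were 3 unlisted regions in the 21.7 kb between them, and the next listed region beyond was again an up region, of 1258 bp, assigned to Pdhx. The down and the nearer up region were 84.2 kb apart, with 11 unlisted regions between them. The region across the start of Cd44 (921 bp, chr2:102900908-102901828) and the widest region (1013 bp, chr2:102948023-102949035) were unlisted. Over the whole series 223 genes had regions in both lists.

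Selplg (ID 20345, chr5:113817798-113832528) had 12 regions, all within 5.41 kb of the gene and none listed (7 regions by the nearest gene of any biotype). The region of 518 bp across its higher-coordinate end (chr5:113832490-113833007) and the widest, of 864 bp inside the gene (chr5:113827950-113828813), were among them. A pair of up regions of 270 and 475 bp lay 12.2 and 11 kb from Selplg, but nearer to Tmem119.

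Most regions of the 8 genes lay outside the gene they were assigned to. Of the 118, 28.8% touched the gene they were assigned to, against 61.1% of all regions, and 13.6% lay within 1000 bp of a gene end, against 17.1%. Between 10 and 50 kb outside the gene lay 35.6% of them, against 14.4% of all regions, and 4 of the 8 down regions and 1 of the 2 up regions were there. In that class 1.32% of all regions were down and 5.92% up, against 1.40 and 4.21% of the series. Gene length and spacing to neighbours enter these shares: S1pr1 alone supplied 29 of the 84 regions outside genes.

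Widths were close to those of the series, with a median of 437 bp (interquartile range 279 to 666 bp) against 400 bp (252 to 653 bp). Medians ran from 343.5 bp at Selplg, 378 bp at Ccr7 and 392 bp at Cd69 to 557 bp at S1pr1, 602 bp at Klf2 and 625.5 bp at S1pr4, which had 2 regions. Down regions of the 8 genes spanned 244 to 1027 bp with a median of 492 bp, inside the range of the unlisted ones (150 to 1319 bp, median 426 bp). The down regions of S1pr1 included 2 of the wider ones, while those of S1pr5 and Klf2 measured at most 435 bp. Over the series, down regions were wider, with a median of 537 bp against 392 bp for unlisted ones. The down share of all regions was 0.365% below 250 bp, a class that holds the Klf2 region of 244 bp, and 2.58% from 500 bp to under 750 bp.

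**Figure D3:**
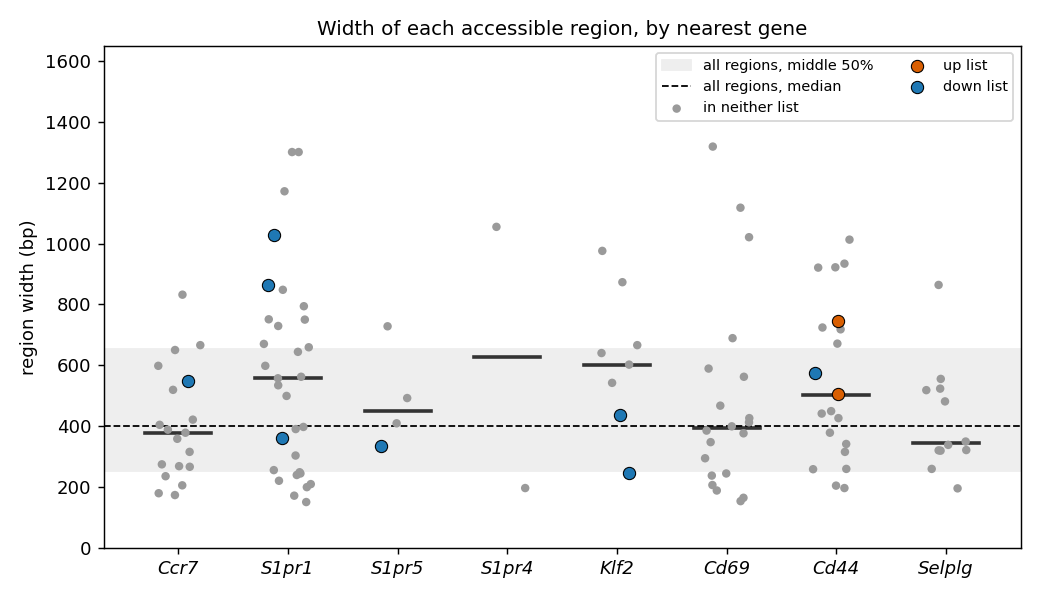
Width of each of the 118 regions (vertical axis, bp) by nearest gene, with down regions in blue, up regions in orange and unlisted regions in grey. Thick lines are gene medians, and the dashed line and pale band are the median (400 bp) and the middle 50% of all regions. Down regions run from 244 bp at Klf2 to 1027 bp at S1pr1 and lie among the unlisted ones.

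Other genes of the pathway were taken from a list of 64: S1P metabolism and receptors, KLF and FOXO factors, homing receptors, selectins and the enzymes that build their ligands, hyaluronan synthases and motility adaptors. Of these, 61 had a region, 10 had a down region, 8 an up region, 1 both and 44 neither. The share with a down region was 16.4%, against 5.39% of all genes with a region, and the share with an up region was 13.1%, near the 16.1% of all genes with a region. Their 649 regions included 21 down (3.24%, 2.13 to 4.9%) and 9 up (1.39%, 0.731 to 2.61%), against the same backgrounds of 1.40% and 4.21%. Klf3, Klf6 and Klf13 supplied 12 of the 21 down regions. Without these 3 genes, 9 of 552 regions were down (1.63%, 0.86 to 3.07%), near the background, and 8 were up (1.45%). Leaving out the 3 KLF genes left 7 genes with a down region and 7 with an up region. The genes of the full list with a region had a median of 7 regions each, against 3 over all genes with a region. Their gene shares were not compared with those of genes with as many regions. Earlier results on these data were known when the list was drawn up, so its counts are not independent support.

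Among KLF factors, Klf3 had 4 down regions of 16, Klf13 had 4 of 32 and Klf6 had 4 of 49 together with 1 up region, while Klf4 had none listed among 24. Of the 4 down regions of Klf3, 3 lay inside the gene. At Klf13 and Klf6 only 1 of 4 did, and the others lay up to 95 and 82.5 kb away. Foxo1, a known activator of Klf2 and Ccr7, had 1 down region of 54, at 297.6 kb from the gene. A count of 1 in 54 is near the 1.40% of all regions that were down. Cxcr4, the bone marrow retention receptor, had 3 down regions of 40, all outside the gene at 22.1, 153.6 and 189.8 kb.

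The other 9 S1P genes of the list had 0 down and 3 up regions among 39, too few to set against backgrounds of 1.40 and 4.21%. S1pr3 had 2 up regions of 8, at 898 bp and 84.9 kb from the gene. S1pr2 had 2 regions, and neither was listed. Spns2, the exporter of S1P, had 1 up region of 8, inside the gene. No region of the S1P kinases Sphk1 and Sphk2 or of the lyase Sgpl1 was listed, out of 2, 1 and 4. Itgal, Foxo3, St3gal4, Selp and Clec2d had 1 down region each, and Coro1a, Itgb1, Tpst1, Has1 and Msn had 1 up region each.

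How regions were given to genes changed the counts. When only regions overlapping the gene counted, 3 of 34 were down and 0 were up, and the genes with a down region were S1pr1, S1pr5 and Cd44. Within 10 kb, 4 of 69 were down and 0 up, with Klf2 added. When every region within 50 kb counted for each gene, whichever gene was nearest, 10 of 185 were down and 6 were up, and 5 genes had an up region. The down share ran from 5.41 to 8.82% over these rules and the assignment to genes of any biotype, and the up share from 0 to 3.24%, against 1.40 and 4.21% of all regions. The highest up share, within 50 kb, was nearer to its background than the 1.69% by nearest gene. S1pr1, S1pr5 and Cd44 had a down region under each of the 5 rules, and Cd69, Selplg and S1pr4 under none of them.

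**Figure D4:**
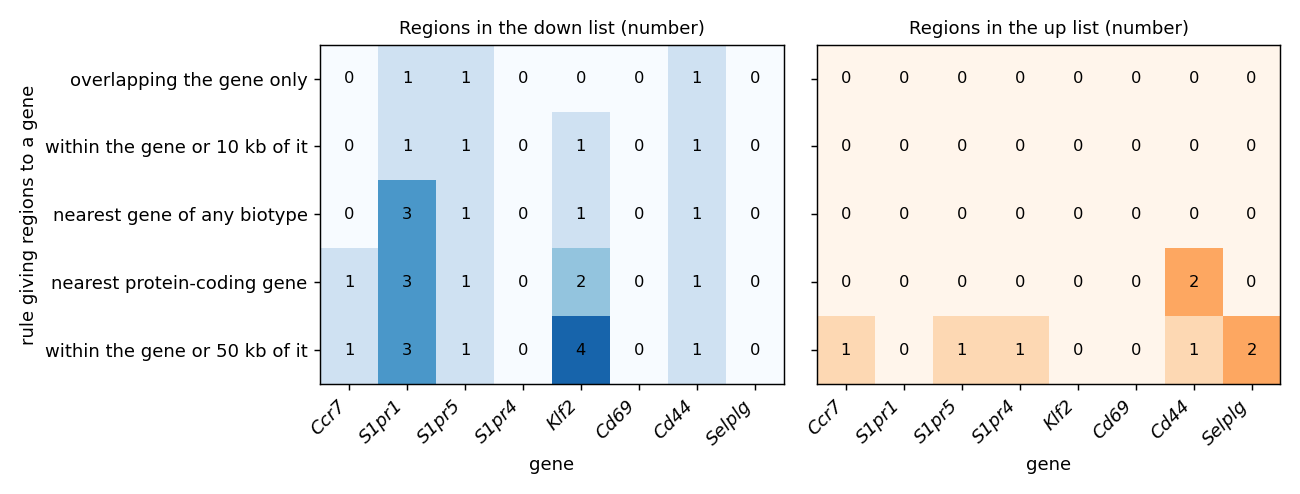
Number of regions in the down list (left, blue) and up list (right, orange) for each gene (columns) under 5 rules for giving regions to genes (rows). S1pr1, S1pr5 and Cd44 have at least 1 down region in every row, and up regions appear only in the lower 2 rows.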

How the data were processed

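ATAC-seq was performed on 4 samples, 2 per IL-15 dose. Per the submitters' processing notes, the build was mm10 and the tools were BWA, ArchR, MACS2 and HOMER 4.11.1, with no role stated. The caller's settings, any pooling of samples before calling, the test behind the lists, its cutoff and its reference dose are not given in the sources used here. Regions called only in pooled reads would hide differences between replicates. The deposited tables hold positions and widths, with 0 columns of values per sample, so the planned edgeR or limma test was not run.

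Starts in the table of all regions were raised by 1 so that coordinates are 1-based, and each listed region then matched a region exactly. Regions were assigned to the nearest of 21900 protein-coding genes of the RefSeq table (GRCm38.p6, the assembly behind mm10) by distance to the span, ties going to the nearer end. All 8 symbols matched. Strand came from the promoter table. Exons, introns and UTRs were not annotated, and only upstream windows were searched for motifs, as no genome was used. Intervals are 95% Wilson intervals from scipy 1.17.1. Assignment and motif search were tested on simulated data. Named regions are every listed region, the widest and those across a gene end or start of each member, and pathway genes with at least 2 listed regions. Others were chosen after their values were seen. A further gene of the pathway list is not reported here and was left out of its counts. The lists, like the genes, were chosen with earlier results of these data known.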

Additional observations from a re-analysis of the deposited data

How the results depend on the processing

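No paired analysis was possible because neither the regions nor the lists come with a value for each replicate. The same holds for leaving out a replicate. Of 172 alternatives, 104 concern counts of single genes, of which 37 moved and 67 stayed within 1.5 times. Of the other 68, 46 left a count within 1.5 times the reported value or a share within its interval, and 22 are given here. They include the median width, which has no replicate spread to be held against. The 118 regions became 69 within 10 kb of the genes, 185 within 50 kb and 34 overlapping them. The 8 down regions became 4 within 10 kb, 3 overlapping the genes and 5 without S1pr1. The 5 genes with a down region became 3 when only overlapping regions counted. The 2 up regions became 6 within 50 kb, and 0 within 10 kb, overlapping the genes, by the nearest gene of any biotype and without Cd44. The 1 gene with an up region became 5 within 50 kb and 0 in the same 4 settings. The median width of 437 bp became 523 bp for regions of at least 250 bp. The share near a gene end, 13.6%, was 24.6% within 3000 bp and 6.78% within 100 bp. The 21 down regions of the pathway genes became 13 within 10 kb and, in an alternative chosen after seeing the data, 9 without Klf3, Klf6 and Klf13. The settings differ in which regions or genes were counted. Shares changed along with counts: the up share was 1.69% by nearest protein-coding gene, 3.24% within 50 kb and 0% by the nearest gene of any biotype. Assignment by the nearest transcription start was not run, since the promoter table matched 4 of the 8 genes. The motif search in the central part of regions was not run for lack of a genome. Depth is unknown.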
